A study of Sus scrofa with 10 samples.

Results

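The cytosolic ribosomal protein genes were examined in the Longissimus lumborum (LL) muscle of 2 Portuguese local pig breeds, Alentejano (AL) and Bísaro (BI). Members were the genes whose symbol is RPL or RPS with a digit, together with RPLP0, RPLP1, RPLP2 and RPSA. The RPS6K kinases, pseudogenes, RPL9 and RPL29 were left out. Of the 25880 genes listed, 50 were members, and 49 of these had at least 1 read in the 10 pigs. They comprised 24 genes of the small ribosomal subunit, 17 of the large subunit, 3 of the ribosomal stalk and 6 that are paralogs of a ribosomal protein gene by their name. The RefSeq annotation holds 81 coding genes of the same rule, and the other 31 (23 of the large subunit, 7 of the small subunit and 1 paralog) were not paired with an identifier of the table and were not analysed here, among them RPL19, a reference gene of the study's qPCR. Counts, sums and shares below therefore cover part of the family.

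The AL group was 5 purebred castrated males (AL44, AL46, AL49, AL52 and AL63) and the BI group was 5 purebred castrated males (BI25, BI34, BI36, BI37 and BI42), with 1 library for each pig. All 10 were kept outdoors, received commercial feed individually and were killed near 150 kg, given as carcass weight in the labels and as body weight in the study's methods. Ages at slaughter are not given in the sources used here. Values are reads counted per gene divided by a size factor for each pig, called normalised counts. Reads counted on genes numbered from 2298045 to 3343194 per pig, and 3 reads, taken as the lowest count that can be told from 0, equalled a normalised count from 2.47 to 3.39. In whole muscle, fewer cells of a type and less RNA per cell cannot be told apart.

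The strand on which reads were counted limits what the values mean. The library is described as stranded, and the strand setting of the counting is not given in the sources used here. Of the 13 protein genes of the mitochondrial genome, 12 lie on one strand and had means of 15.6 (ATP8) to 2556 (ND5) normalised counts. ND6, the single gene of the opposite strand, had 52623, from 24966 to 81216 over the pigs. Among nuclear genes, RABEP2 had 337001, while ATP2A1, the calcium pump of fast fibres, which overlaps it on the opposite strand, had 4718. CTSF had 153260.4, while ACTN3, the actinin of fast fibres, 127 bp away on the opposite strand, had 1394. These genes were chosen after their values were seen. Other muscle genes had higher counts than ATP2A1 and ACTN3, such as ACTA1, the actin of skeletal muscle, with a mean of 12496, and TNNT3 with 10732. Reads counted on the strand opposite to the messenger RNA would give the order seen for ND6, RABEP2 and CTSF. A member's value may therefore stem from the opposite strand of its position and cannot be taken as the level of its messenger RNA. Breed differences and covariation are given below for these counts as deposited.

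A ribosome is made of a small subunit, which reads the messenger RNA, and a large subunit, which joins the amino acids, each built of ribosomal RNA and many proteins. The acidic proteins of the stalk bring elongation factors to the large subunit. Because each protein is needed once per ribosome (the stalk proteins P1 and P2 more often), the genes are known for being expressed together. Their messenger RNAs typically begin with a run of C and T bases at the very 5′ end, through which growth signalling by mTOR adjusts their translation. In skeletal muscle, ribosome number is known to limit how much protein a fibre makes, and striated muscle uses RPL3L, a paralog of RPL3.

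The start of the transcript was read from the genome for each member, because the run of C and T bases is the sequence feature the family is known for. In windows of 30 bases, 15 before the annotated start and 15 from it on, a run of at least 8 C or T bases was found in 19 of 50 members (38.0%) and in 11.8% of the 19546 coding genes with a window. The median longest run was 6 bases in members and 4 in coding genes. The sequences below (RefSeq annotation of Sscrofa11.1, coding strand, 5′ to 3′) have the longest run in capitals. The first group holds 3 genes with long runs, the second the 3 genes that moved most closely with the other members between pigs, and the third the 5 that moved least with them, as described further on.
RPL14 (chr13:24695194-24695223, plus strand): gCCTTCTTCCTTCTCgccgaacgccgccaa
RPLP2 (chr2:507876-507905, plus strand): cccccgcgccggcgTCTTCCTTTCTgtccc
RPL10 (chrX:124927234-124927263, plus strand): caggcgtgggagcgCCTCTTTTCCTTCggc
RPLP1 (chr1:167296069-167296098, plus strand): aagaggctgcgcgcaggcgcgaggaaTCCC
RPL28 (chr6:59556780-59556809, plus strand): tgcccttgcctggCCTCTCTCgctgcgccg
RPS18 (chr7:29638841-29638870, plus strand): cactggaggCCTacacgccgccgcccgcgc
RPL36AL (chr1:179477806-179477835, minus strand): aggctagagcagagcgagaCCCggaacgtg
RPL5 (chr4:124367598-124367627, minus strand): agcggtgctgggcctgctgCTCTgtggcaa
RPL7A (chr1:272961406-272961435, plus strand): TTTggggtaaatcacctgagaaggacgccg
RPL23 (chr12:23279950-23279979, plus strand): ctttgttcttaCTTCCTTTTCgtccttgtc
RPS21 (chr17:61763591-61763620, plus strand): cggCCCTTCCTTTCTgcgctcgcgctcatc
In RPL14, RPLP2 and RPL10 the run was 14, 11 and 13 bases, and in RPLP2 and RPL10 it spanned the annotated start. RPLP1, with 4 bases, and RPS18, with 3, had no run of 8 in the window. A missing run says only that these letters are not in this window, whose place depends on the annotated start.

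Counts were low for most members and differed widely among them. The mean normalised count over the 10 pigs had a median of 26.7, was over 100 in 7 members and under 10 in 10 members. Only RPL7A and RPS2 ranked among the 500 genes with the highest means in the table. RPL7A, RPS2 and RPL10 together held 45.0% of the members' total. The 50 members' share of all reads on genes was 0.101% in AL49, 0.131% in AL44, 0.120% in AL52 and 0.133% in AL63. In AL46 it was 0.180% (95% exact binomial interval 0.175 to 0.185, counting error only). In the BI pigs the share lay between 0.114% (BI34) and 0.124% (BI37 and BI42). AL46 thus held the highest share of the 10 pigs and AL49 the lowest, so the AL pigs enclosed the whole BI range.

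**Figure D1:**
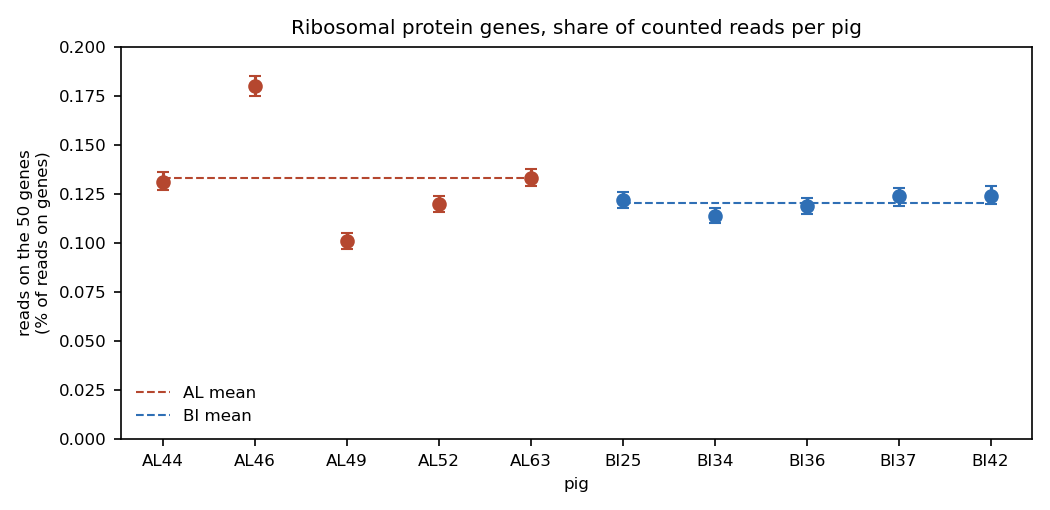
Share of the reads on genes that fell on the 50 ribosomal protein genes (y axis, percent) in each pig (x axis). Bars are 95% exact binomial intervals and dashed lines are breed means. AL46 stands at 0.180%, above all other pigs, while the BI pigs lie between 0.114% and 0.124%.

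Values of single genes are given in the order AL44, AL46, AL49, AL52 and AL63, then BI25, BI34, BI36, BI37 and BI42. RPL7A, a large subunit protein, had normalised counts of 829.9, 665, 598, 766 and 837 in AL and 929.9, 704, 727, 662 and 711 in BI. The breeds overlapped throughout, and the means were 739 ± 105 (SD, n = 5) and 747 ± 105 (SD, n = 5). RPL10, which takes part in joining the subunits, had 250.2, 365, 184, 251 and 267 in AL and 242, 287, 287, 255 and 239 in BI. AL46 was the highest of the 10 pigs for RPL10 and AL49 the lowest, which leaves BI within the AL range. RPS2, a small subunit protein near the entry of the messenger RNA, had 283, 912, 459.6, 517 and 611 in AL and 437, 525, 365, 486 and 549 in BI. Its AL pigs ranged from the lowest to the highest value of all pigs.

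Of the other members with high counts, RPS25, which some viral and cellular messenger RNAs need for internal initiation, had 189, 207, 129, 132 and 118 in AL and 174, 149, 215, 145 and 191 in BI. RPS28 had 51.9, 147, 68.0, 72.0 and 129 in AL and 66.7, 98, 90.5, 77.2 and 85.6 in BI. RPS7, which can bind MDM2, had 51.0, 126, 45.3, 64.0 and 70.1 in AL and 59.3, 56.2, 74.1, 43.1 and 57.0 in BI. AL46 was the highest pig for RPS28 and RPS7 but not for RPS25, and in all 3 the breeds overlapped. RPSA, which is also a receptor for laminin, had 4.72, 18.6, 3.24, 9.78 and 12.4 in AL and 9.06, 14.3, 8.62, 9.02 and 8.45 in BI, with AL46 again the highest. RPS4X, the copy on chromosome X, ranged from 5.39 (AL49) to 26.4 (BI42).

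Per kilobase of transcript, the scale for comparing genes, the mean count was 627 normalised counts in RPL7A, 309.5 in RPL10, 308 in RPL36AL, 277 in RPS28, 231 in RPS25 and 205 in RPL28. RPS4X (10.6), RPS3A (13.8) and RPL6 (14.3) had the lowest per-kilobase counts among the members tested. For RPS2 the value of 87.1 rests on the one RefSeq transcript, of 5903 bases, although its coding sequence has 882 bases. At other places of the genome, 35 of the 50 members had at least 1 near-identical copy of their coding sequence (at least 90% identity over at least 80% of it), with 10 copies for RPLP1 and 7 each for RPS23, RPS24 and RPS25. How reads matching several places were counted is not given in the sources used here, so the counts of these 35 genes are uncertain. The 5 members with 5 or more copies had a median per-kilobase count of 57.6 and the other 45 one of 41.4.

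Among the paralogs, the count of RPL3L exceeded that of RPL3 in 10 of 10 pigs. RPL3 had normalised counts of 0.944, 8.37, 6.47, 1.78 and 4.52 in AL and 4.94, 4.41, 1.72, 2.0 and 6.34 in BI, and 4 pigs had 3 reads or fewer. RPL3L had 39.7, 68.8, 55.0, 45.4 and 99.5 in AL and 51.9, 84.8, 43.1, 50.1 and 60.2 in BI. The lowest RPL3L value, 39.7, lay above the highest RPL3 value. The start of RPL3L overlaps NDUFB10 on the opposite strand by 744 bp, a gene with a mean of 70767, so these counts may not measure the transcripts of the 2 paralogs. RPL36AL, a paralog of RPL36A, had a mean of 148 against 9.56 for RPL36A. Near-identical copies lie elsewhere for RPL36A (3, up to 99.2% identity) and RPL36AL (2, up to 92.3%), so this contrast is uncertain. RPL10L, a copy known from testis, had 0 reads in every pig, which allows a normalised count of up to 2.47 to 3.39. RPL26L1 had 3 reads or fewer in 10 pigs, RPL7L1 in 7 pigs, and RPS27L averaged 4.68.

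The first comparison asked whether AL and BI muscle differed in these genes. No difference between the breeds passed the test in these genes: limma on log2(normalised count + 1) with Benjamini-Hochberg adjustment over all genes called 0 of 40 members, where it called 1 of the 3315 genes tested (0.0302%). At an unadjusted limma p under 0.05 the count was also 0 of 40, beside 239 of 3315 genes (7.21%). The median log2 fold change of AL against BI was -0.02 for the members and -0.03 for all genes tested, with 19 members above 0 and 21 below. Counted by subunit, 10 of 20 small subunit genes, 5 of 15 large subunit genes, 2 of 3 stalk genes and both paralogs tested (RPL36AL and RPL3L) were above 0. No member separated the breeds without overlap, as 46 of the 3315 genes did (1.39%).

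The 10 members not tested had a summed normalised count under 50 in at least one breed, with 0 to 101 reads over all pigs. They were RPSA, RPL36A, RPS13, RPS29, RPS15A, RPS27L, RPL3, RPL7L1, RPL26L1 and RPL10L. On the reads recovered from the deposited values, edgeR, DESeq2 and limma-voom also called 0 of the 40 members at an adjusted and at an unadjusted p under 0.05. The log2 fold change of a member had a 95% interval that reached a median of 0.61 to either side, and 6 intervals extended beyond 1 in size. Differences of such a size could go uncalled at this depth and number of pigs. The intervals are of single genes, without adjustment for the 3315 genes tested, so larger differences could also miss the threshold. The scale with 1 added understates changes of the low genes.

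The differences nearest the threshold were small. RPL5, which with RPL11 holds an RNA of the large subunit and can bind MDM2, had 189.8, 130.1, 138, 198 and 138 in AL and 238, 228, 201, 251 and 129 in BI. In BI 4 of the 5 pigs lay above all AL pigs, but BI42 was the lowest of the 10. Its log2 fold change was -0.38 (95% interval -0.82 to 0.06, limma adjusted p = 0.753). RPL36AL had 178, 144, 191, 161 and 133 in AL and 143, 132, 131, 136 and 126 in BI. Here 4 AL pigs exceeded every BI pig, with a mean of 162 ± 23.7 (SD, n = 5) against 134 ± 6.57 (SD, n = 5). For this gene the log2 fold change came to 0.26 (95% interval -0.06 to 0.58, limma adjusted p = 0.782). In the exact two-sided permutation test of normalised counts, whose smallest possible p is 0.00794, RPL36AL had p = 0.0317 (0.615 adjusted over all genes tested by Benjamini-Hochberg). It was the 1 tested member of 40 under 0.05 in that test, which 7.06% of all genes tested passed. RPL26L1, outside the genes tested, had an exact permutation p of 0.0159 at 3 reads or fewer in every pig, too few to compare.

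RPS15, near the site where codons are read, had the lowest log2 fold change of the 40, -0.43 (95% interval -1.02 to 0.16, limma adjusted p = 0.813). Its values were 18.9, 50.2, 23.7, 35.6 and 39.6 in AL and 38.7, 60.6, 37.9, 38.1 and 43.3 in BI, so 3 AL pigs lay below all BI pigs while AL46 and AL63 lay within the BI range. RPS16, of the same subunit, had the highest, 0.40 (95% interval -0.27 to 1.07, limma adjusted p = 0.832). Its values were 22.7, 72.5, 24.8, 37.4 and 33.9 in AL and 28.8, 26.4, 33.6, 17.0 and 28.5 in BI, where AL46 was above all other pigs and BI37 below them. Without AL46 the log2 fold change of RPS16 was 0.14 and without BI37 it was 0.25, and that of RPS15 ranged from -0.59 to -0.25 over the alternatives run. Others with the smallest limma p were RPL7 (log2 fold change -0.42), RPL23 (-0.34), RPS24 (-0.29), RPL28 (0.23) and RPS7 (0.22), with limma adjusted p-values from 0.819 (RPL7) to 0.919 (RPL28 and RPS7).

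**Figure D2:**
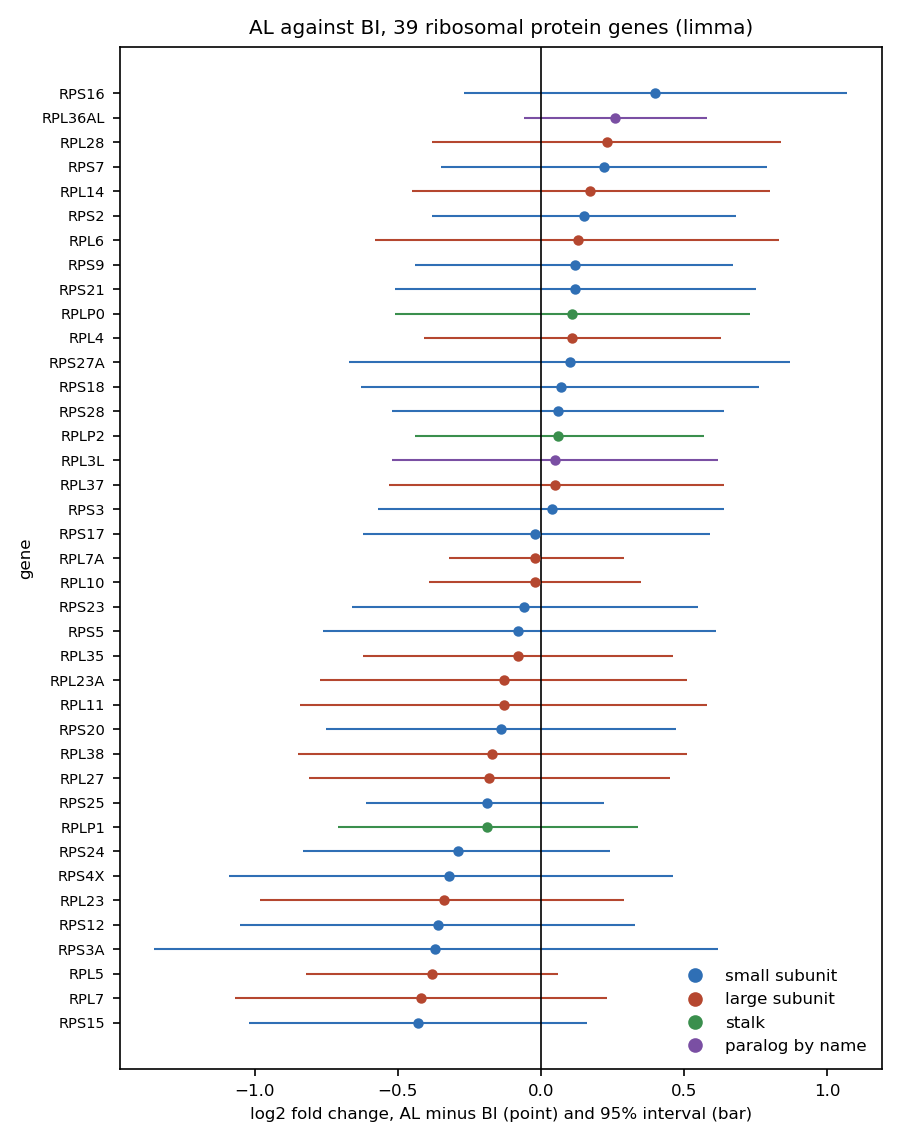
Log2 fold change of AL against BI (x axis, points) with its 95% interval (bars) for 39 of the 40 genes tested (y axis), coloured by role. The points run from -0.43 (RPS15) to 0.40 (RPS16), and every interval includes 0.

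The direction of the small median depended on single pigs. Without AL46 the median log2 fold change of the members was -0.18, with 6 of 40 above 0, and without AL44 it was 0.13, with 25 of 40 above 0. With either pig left out limma still called 0 members.

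The second comparison followed the members from pig to pig. Their values moved together: over 780 pairs of the 40 members tested, the median Pearson correlation over the 10 pigs was 0.55 (quartiles 0.15 and 0.73), beside 0.00 for pairs of all genes tested. This is a description, without a test, since the genes share libraries and scaling. With the breed means removed the median was 0.58. Within a breed, where 5 pigs are too few for single correlations, the median over pairs was 0.70 in AL and 0.28 in BI.

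Much of this followed AL46. Of the 40 members, 27 had their highest value in AL46, where 11% of all genes tested had theirs. The lowest value fell in AL44 for 17 members and in AL49 for 11, together 28 of 40, beside 22.8% of all genes tested. The value in AL46 was 0.656 to 2.57 times the median of the other pigs (median 1.75) and was above it in 37 members. Without AL46 the median pair correlation was 0.38, in AL alone it was 0.51 without this pig, and without AL46 and AL44 (a choice made after seeing the data) it was 0.34, always beside 0.00 for all genes.

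RPLP1, a stalk protein, had the highest mean correlation with the other 39 members, 0.60, with normalised counts of 55.7, 139, 50.7, 73.8 and 76.9 in AL and 73.3, 95.8, 81.0, 84.2 and 89.8 in BI. AL46 lay above all pigs and AL49 and AL44 below them. RPL28, of the large subunit, followed at 0.59, with 75.5, 251, 94.9, 110.3 and 158 in AL and 87.3, 146, 112, 92.2 and 107 in BI. RPS18, in the head of the small subunit, also had 0.59, with 17.9, 56.7, 15.1, 29.4 and 38.5 in AL and 28.0, 27.5, 26.7, 22.0 and 30.6 in BI. In all 3 the AL pigs spanned both ends and the BI pigs lay between. The other stalk genes, RPLP0 (mean correlation 0.53) and RPLP2 (0.55), were likewise highest in AL46 (88.3 and 57.6) and in AL44 were at 25.5 and 27.4, their lowest values. By role, the median of the mean correlations was 0.52 in the small subunit, 0.48 in the large subunit and 0.55 in the stalk.

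**Figure D3:**
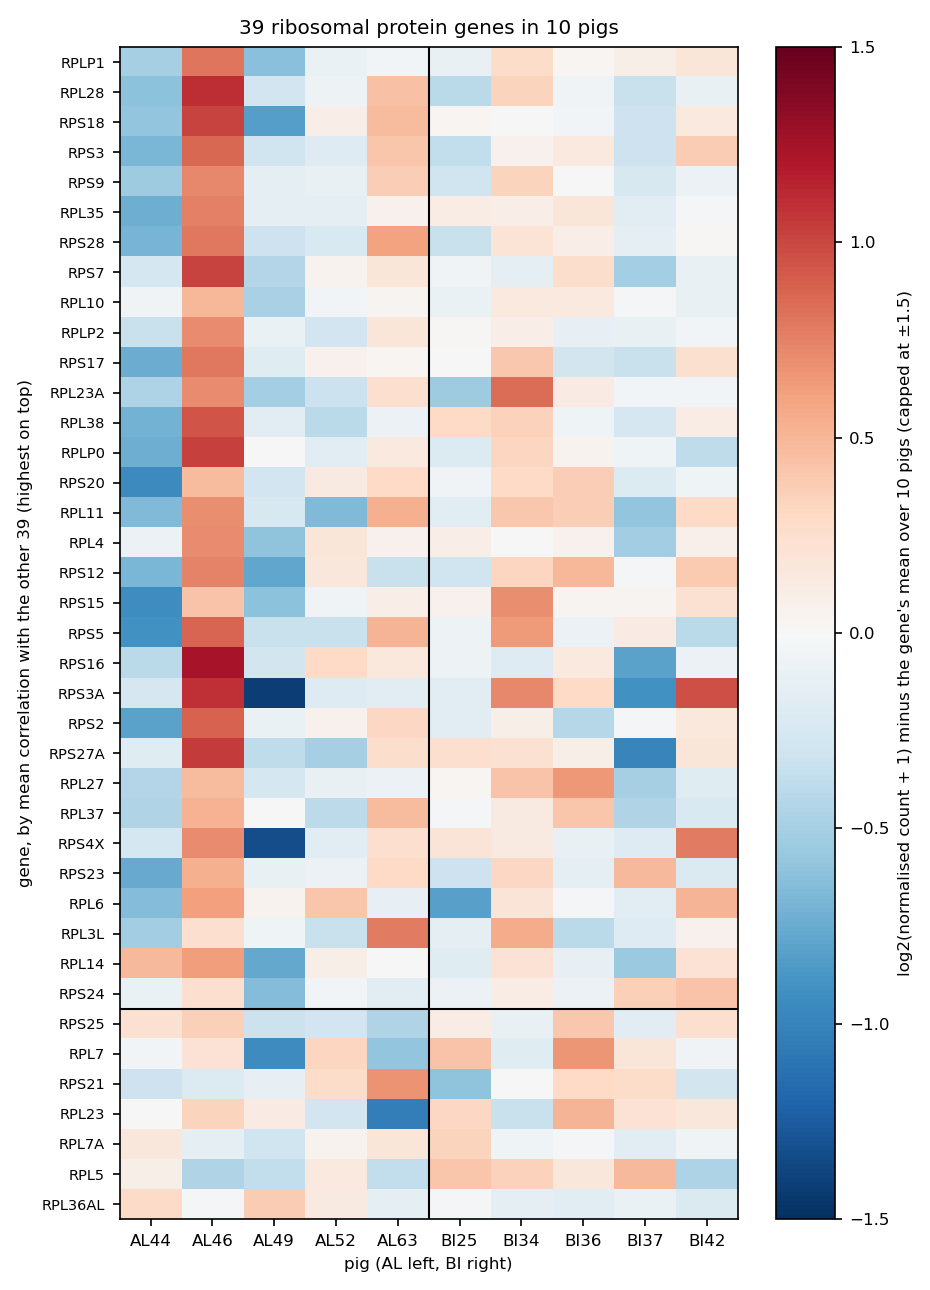
Deviation of log2(normalised count + 1) from each gene's mean over the 10 pigs (colour, red above and blue below) for 39 of the 40 genes tested (rows, ordered by mean correlation with the others) in each pig (columns). The AL46 column is red (above the gene's mean) in all 32 rows above the horizontal line and in 3 of the 7 rows below it.

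A group of 7 members stood apart, with a mean correlation with the others under 0.25, a limit set after the values were seen. They were RPL36AL (-0.43), RPL5 (-0.22), RPL7A (-0.08), RPL23 (-0.04), RPS21 (0.05), RPL7 (0.16) and RPS25 (0.19), and the next member above the limit was RPS24 (0.29). RPL23, a large subunit protein that can bind MDM2, had 19.8, 25.1, 21.6, 16.0 and 9.05 in AL and 24.7, 15.4, 28.4, 23.0 and 22.2 in BI, with AL63 the lowest of the 10. RPS21, of the small subunit, had 10.4, 11.2, 11.9, 16.0 and 21.5 in AL and 8.24, 13.2, 16.4, 16.0 and 10.6 in BI, with AL63 the highest. The 7 were set apart by these correlations, so that none had its highest value in AL46 is a description. Without AL46 all 7 still lay under 0.25, from -0.51 to 0.20, joined by 3 of the other 33, of which the lowest was at 0.14. RPL5, RPL7A, RPS25 and RPL36AL are also 4 of the 6 members with the highest means, whereas RPS2 (0.50) and RPL10 (0.55) are among those that moved together. A run of at least 8 C or T bases at the transcript start was present in 4 of the 7 and in 14 of the 33.

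**Figure D4:**
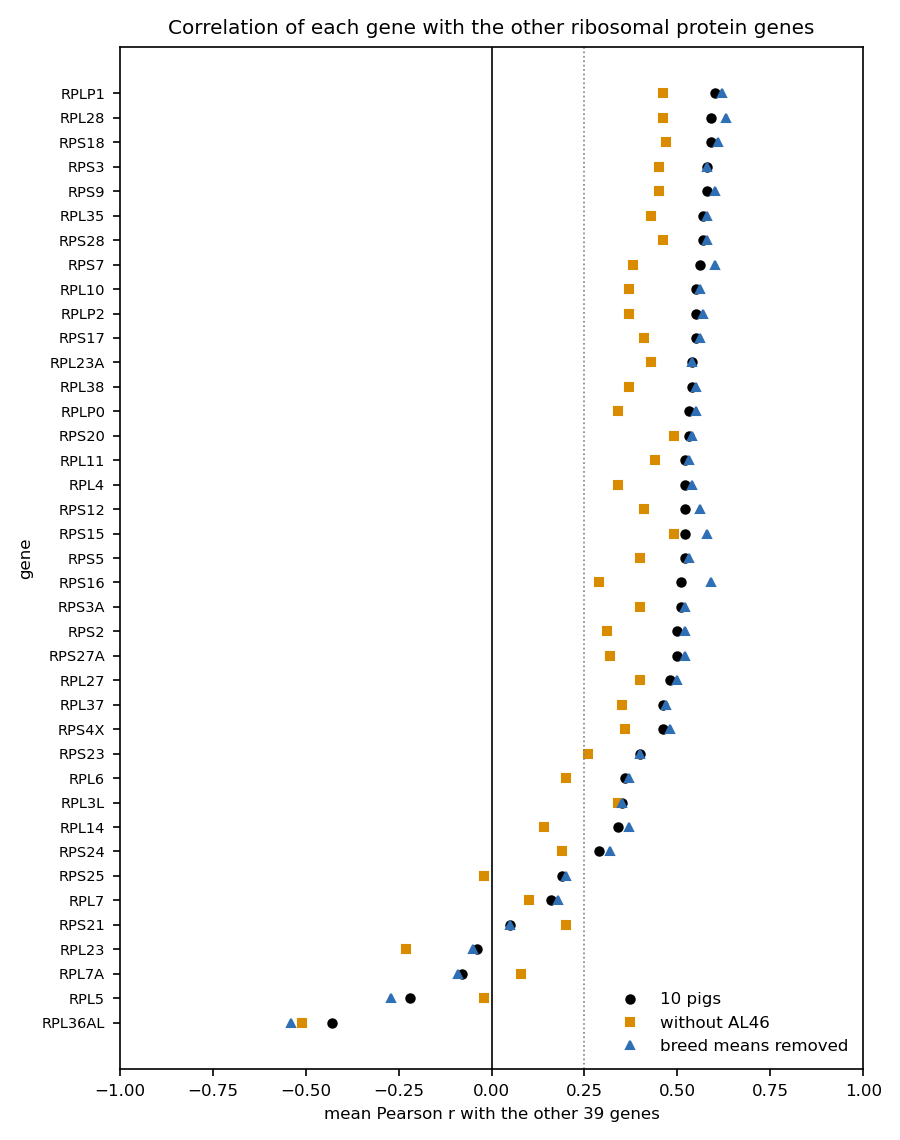
Mean Pearson correlation of 39 of the 40 genes tested (y axis), each with all other members tested (x axis), over 10 pigs (black circles), without AL46 (orange squares) and with breed means removed (blue triangles), with a dotted line at 0.25. The lowest 7 genes run from -0.43 (RPL36AL) to 0.19 (RPS25), and most other genes shift left without AL46 but stay above 0.

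The spread of most members was larger than counting alone gives. The within-breed coefficient of variation had a median of 2.03 times that expected from counting, and was over 1.5 times in 30 of 40 members. It was 7.65 times for RPS2, 4.75 for RPL28 and 3.89 for RPL7A. RPL36AL, among the 7, was at 1.44, and RPS24 at 0.902, a spread no larger than counting gives.

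Markers of muscle and of other cells also moved between pigs. Of 17 muscle fibre markers 10 were paired and tested, and their summed normalised count was 23088 in AL44, 48737 in AL46 and 64003 in BI34, the highest (AL 23088 to 48737, BI 39371 to 64003). ACTA1, the actin of skeletal muscle, was at 5039 in AL44, 13832 in AL46 and 20532 in BI34. The median correlation of these markers with the members had a median of 0.55, but none was highest in AL46. Of 5 fibroblast markers all were paired. COL1A1 (63.2 in AL46, at most 25.4 elsewhere), COL3A1 (28.8 and 19.4) and DCN (9.30 and 4.41) were highest in AL46, COL1A2 was at 8.37 in AL46 and 7.92 in AL63, and LUM had at most 2 reads in any pig. Their sum was 112 in AL46 and 13.2 to 50.7 in the other AL pigs, beside 19.0 to 43.3 in BI. Of 7 adipocyte markers (sum 76.5 to 156 in AL and 68.7 to 179.5 in BI) most of the sum was PLIN4, while ADIPOQ and LEP did not exceed 1.78 in any pig. Of 9 blood cell markers 8 were paired (up to 389.9 in AL, 261 to 403 in BI), with CD3E and LYZ at 0 in every pig and HBB at or under 4.94. Most of this sum was CSF1R, at 211 to 365 over the pigs. Of 4 endothelium markers 3 were paired (3.24 to 16.7 in AL, 2.20 to 9.88 in BI). Their sum was highest in AL46, as was PECAM1 at 10.2. CDH5 was highest in BI25 (7.41, beside 6.51 in AL46), and KDR was at 0 in all but BI37. None of the 3 reached the count minimum for testing. Of 2 proliferation markers TOP2A was paired and reached 1.06 in BI42 alone. AL46 had 2798295 reads on genes, within the range of the other pigs. The part of any of these in the members' pattern was not tested.

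The other genes of translation, from lists written from general knowledge, were also without a call between the breeds. Limma's adjusted p was over 0.05 for each of those tested. These were 2 further ribosomal protein genes, 7 elongation and termination factors, 18 initiation factors and 11 genes of ribosome biogenesis. The rest were 8 genes of growth signalling to the ribosome and 2 others, NAP1L1 and TPT1. RACK1, a scaffold protein of the small subunit, had 12.3 in AL44 and 49.3 in AL46, its lowest and highest values, and a median correlation with the members of 0.70. FAU, whose protein is a fusion of a ubiquitin-like part and a small subunit protein, went the other way, with its highest value, 544, in AL44 and a median correlation of -0.29. Among elongation factors, EEF1D (0.69), EEF2 (0.61) and EEF1A2 (0.60), the form of skeletal muscle, were the closest to the members by their median correlation. EEF2K, the kinase that inhibits EEF2, had the smallest p of that list (log2 fold change 0.41, limma adjusted p = 0.846), followed by GSPT1 (-0.31, 0.872).

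In ribosome biogenesis, 4 of the 11 genes tested were lowest in AL46 and 1 was highest there (BYSL, 80.9), while of the 20 paired but not tested, with low counts, 5 were highest in AL46. GNL3, a nucleolar GTPase, had its lowest value in AL46 (281) and its highest in AL44 (442), POLR1B of RNA polymerase I likewise (31.6 and 99.1), and NOP56, of the RNA-modifying particles, was lowest in AL46 (2219.8). The 11 genes of this list tested had a median correlation with the members of -0.21, beside 0.48 for elongation and termination and 0.21 for initiation, with no test of the difference. TSR1, which matures the small subunit, had the smallest p (log2 fold change -0.61, limma adjusted p = 0.634), then UBTF, a factor of ribosomal RNA transcription (0.44, 0.743). Of initiation, EIF4G1, the scaffold of the cap complex, had 0.43 (limma adjusted p = 0.743) and EIF4A2, a helicase of it, -0.25 (0.813). Of growth signalling, MLST8, a subunit of the mTOR complexes, had -0.22 (limma adjusted p = 0.813) and RPS6KB2, a kinase of the small subunit protein S6, 0.45 (0.813), the latter highest in AL46 at 73.4 and lowest in AL44 at 18.9. The log2 fold change was -0.26 for NAP1L1 (limma adjusted p = 0.908) and 0.01 for TPT1 (0.982).

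Several members lie beside a gene of the opposite strand. Positions are those of the RefSeq annotation of Sscrofa11.1, the build the study used. Within 1000 bp of 22 of the 50 members there was a gene on the opposite strand, in 6 cases overlapping. Of all tested genes with a position, 1791 of 2607 (68.7%) had one within the same distance. For 15 members such a gene was paired with an identifier. Of these, 8 had a neighbour with a higher mean normalised count than their own, and for 6 it was at least 10 times higher. RPS27A, a fusion of ubiquitin and a small subunit protein (chromosome 3, 85989609 to 85992257, minus strand), had a mean of 13.9, while MTIF2, a mitochondrial initiation factor whose end lies 153 bp from the end of RPS27A, had 8332, from 7018 to 10735 over the pigs. RPS21 (chromosome 17, 61763606 to 61764823, plus strand) had 13.5, and CABLES2, 109 bp past its end, had 3631. RPL23A (chromosome 12, 44956851 to 44960737, plus strand) had 45.9, and TLCD1, 227 bp past its end, had 7945.

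In these 3 pairs the neighbour had the higher count in all 10 pigs. The same was so for NDUFB10, a subunit of respiratory complex I, with 70767, which overlaps the end of RPS2 (514) by 2 bp and the start of RPL3L (59.8) by 744 bp, and whose lowest value was 56669.8. VPS52 (1334) overlaps RPS18 (29.2) by 313 bp. RNF151 (2.50) lies within RPS2, and MED22 (0.581) overlaps the start of RPL7A (743) by 198 bp, both with lower counts than the member. Where the genes met end to end, 4 of 6 neighbours had a mean of at least 500 (median 5788), and where they met start to start 3 of 12 had (median 3.69). NDUFB10 is counted in both. The part of the opposite strand in the members' counts was not tested.

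**Figure D5:**
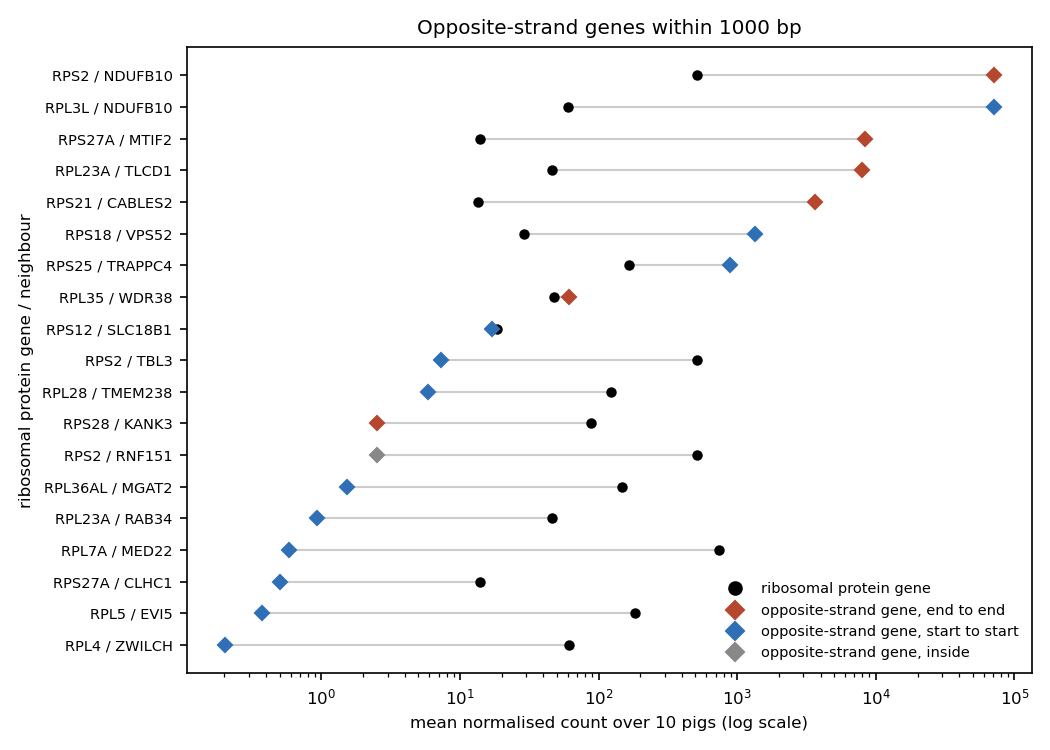
Mean normalised count over the 10 pigs (x axis, log scale) of ribosomal protein genes (black circles) and of the opposite-strand gene within 1000 bp of each (diamonds, coloured by how the genes meet), 1 pair per row. NDUFB10, MTIF2, TLCD1, CABLES2, VPS52, TRAPPC4 and, by a small margin, WDR38 lie right of their partner, and 10 neighbours at the bottom of the plot have means under 10.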

How the data were processed

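RNA of LL muscle from 10 pigs (5 AL, 5 BI) was sequenced as a stranded paired-end library per pig. The authors trimmed reads with Trim Galore 0.5.0, used HISAT2 2.1.0 for mapping to Sscrofa11.1 and made gene counts in HTSeq 0.11.1. The strand setting is not given in the sources used here, and counts may be of the opposite strand. Deposited for each pig is a signal, the gene count over the pig's DESeq2 size factor. The deposited log2 fold changes, p-values and scores (standard error and Wald statistic) are the authors' comparison and were not used, nor was their mean over the pigs.

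Each value divided by the smallest one of its pig gave whole reads (100.0% within 0.01). Identifiers were paired with symbols for 14857 genes. Tested were the 3315 genes whose normalised counts summed to 50 or more in both breeds, with limma 3.58.1 (R 4.3.3, intensity trend, no covariate) on log2(value + 1), with Benjamini-Hochberg adjustment and a threshold of 0.05. Single members were also compared by an exact two-sided permutation test over all divisions of the pigs into 5 and 5. edgeR 4.0.16, DESeq2 1.42.0 and limma-voom on the recovered reads, other pseudocounts, minimums and scalings, and each pig left out were the alternatives. The fits were tested on simulated data. With 1 library per pig, p-values set the breed difference against the spread between these pigs.

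The members, the gene lists and the rule for naming genes were chosen with earlier results of these data known. Named were the 10 members with the highest means, the 5 per direction with the smallest p, paralogs, stalk genes and RPSA, the 3 with the highest and 3 with the lowest mean correlation, those with a pig apart by Dixon's ratio, the pathway genes with the 2 smallest p of each list, and overlapping opposite-strand genes. One member that this rule names is not reported here but stays in all counts. Others were named after their values were seen, among them RPS21 and the opposite-strand genes that do not overlap. Sequences and positions came from RefSeq (Sscrofa11.1), with 1 transcript per gene, a curated one where present and otherwise that of median length. Coding sequences were compared with the genome by BLAST 2.17.0. Tables and figures used Python 3.11.15, numpy 2.4.6, pandas 2.3.3, pysam 0.24.0 and matplotlib 3.10.9.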

Additional observations from a re-analysis of the deposited data

Results flagged for a closer look

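In 6 of 102 groups of 5 pigs (each member in each breed, and the members' totals), 1 pig lay far from the others of its breed by Dixon's ratio for 5 values (critical value 0.71). Chance flags about 1 in 20 such groups, close to what was seen, and 5 of the 6 were in BI. In BI37, RPL4 was lowest at a normalised count of 41.1 (other BI pigs 59.5 to 63.4) and RPS27A was lowest at 6.01 (13.8 to 15.6). In BI34, RPS15 was highest at 60.6 (37.9 to 43.3) and RPSA at 14.3 (8.45 to 9.06). In BI25, RPL7A was highest at 929.9 (662 to 727). In AL46, RPL38, a large subunit protein, was highest at 28.8 (8.50 to 13.6). No explanation of these values was tested.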

How the results depend on the processing

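Under every alternative run, 0 ribosomal protein genes passed the threshold, and for the 23 named members that were tested no adjusted p fell under 0.05 in 449 alternative fits. Over all genes, the 1 call of limma became 0 when both breeds had to average 50 or more (1513 genes, 15 members), 40 with no minimum, 31 with DESeq2, and 0 to 18 with single pigs left out (0 without BI36, 4 without BI37, 18 without AL44). The median log2 fold change of the members moved between -0.02 and 0.06 over the other settings, being 0.05 with the higher minimum, 0.02 with no minimum, and 0.06 with edgeR and with DESeq2, and between -0.18 (without AL46) and 0.13 (without AL44) with single pigs left out. The median pair correlation, 0.55, was 0.43 with the higher minimum, 0.46 with no minimum, 0.48 by Spearman's correlation and 0.38 (without AL46) to 0.59 (without BI42) with single pigs left out. It was 0.34 without AL46 and AL44 together, and in AL it was 0.70 with all pigs and 0.51 without AL46, both chosen after seeing the data. The cause of these shifts was not tested.

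Of the 23 named members, 11 kept the sign of their log2 fold change in all settings run. RPL10, at -0.02, was 0.03 with edgeR and with DESeq2. With single pigs left out, RPL10 ranged from -0.15 to 0.10, RPL7A from -0.06 to 0.06, RPL3L from -0.14 to 0.19, RPL4 from -0.05 to 0.28, RPL28 from -0.02 to 0.41, RPLP0 from -0.13 to 0.31, RPLP2 from -0.10 to 0.16, RPS2 from -0.05 to 0.37, RPS7 from -0.01 to 0.36, RPS18 from -0.18 to 0.28, RPS27A from -0.15 to 0.24 and RPS28 from -0.13 to 0.24. In 10 of these 12 the lowest value was that without AL46. No replicate number is shared by the breeds, so no paired analysis was possible because the labels pair no pigs. Depth limits the low members most: 10 of the 50 members fell under the minimum.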

Other observations

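Along the first principal component of the tested genes, which held 35.6% of their variance between the pigs, 33 of the 40 members had a weight of the same sign, as did 49.3% of all genes tested. The pigs at its ends were AL44 (-0.48) and AL63 (0.49), both of the AL group, with AL46 at 0.36 and BI34 at 0.29.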
